A study of Mus musculus with 6 samples.

Results

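Oxidative phosphorylation genes were examined in AT2 (alveolar type II) cells, which line the alveolus and make surfactant, in lungs recovering from bacterial injury. The members were all gene symbols beginning with Nduf, Uqcr or Atp5, together with Sdha, Sdhb, Sdhc, Sdhd, Cycs and the symbols Cox4 to Cox8 in all their forms, that held at least 10 counts summed over 6 libraries. Atp5l, with 97 counts, was the lowest member, and Ndufa4l2, with 4, was the highest of the 5 symbols left out. There were 86 such genes among the 23337 symbols counted, and all 86 passed the filter on low counts. By textbook function 78 encode a structural subunit or cytochrome c, with 35 in complex I, 4 in complex II, 8 in complex III, 16 in complex IV counted with cytochrome c, and 15 in the ATP synthase. The other 8 are assembly or coupling factors, the supercomplex factor Cox7a2l, and Cox4nb. Cox4nb is an older symbol of Emc8, an endoplasmic reticulum gene that encodes no part of the respiratory chain.

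The mutant mice had the genotype SpC-CreER/Dlk1flox/ROSA-Tomato and the wild-type mice SpC-CreER/ROSA-Tomato, with 3 libraries each. In both, a tamoxifen-inducible Cre recombinase under the surfactant protein C promoter switched on a red Tomato reporter in AT2 cells, and only in the mutant could it also delete the floxed Dlk1 gene, which encodes a relative of the Notch ligands. All mice had acute lung injury from Pseudomonas aeruginosa, and Tomato-positive cells were sorted 10 days later. The extract protocol also speaks of 8 days of culture, so whether the cells were cultured first is not settled, and the labels do not state that each library came from its own animal, so p-values measure the spread between these libraries.

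Oxidative phosphorylation passes electrons from NADH through complex I, or from succinate through complex II, to coenzyme Q, then through complex III, cytochrome c and complex IV to oxygen. Protons pumped on the way drive the ATP synthase. AT2 cells are known for many mitochondria, since making and secreting surfactant costs much energy. Most subunits are encoded in the nucleus, and those whose symbols meet the rule above are described here. Nuclear subunits with other symbols fall outside the rule, and the few encoded by mitochondrial DNA were not analysed here.

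The libraries held 22511461 to 30695994 counts. AT2 markers were abundant in all of them, with a summed level of 119587 to 162991 CPM (counts scaled to a common library size by TMM) over 10 genes. Dlk1 had 2, 0 and 0 counts across mutants 1 to 3, against 2, 0 and 2 counts across wild types 1 to 3, too few to check the deletion. Mutant 1 stood apart, with the leukocyte gene Ptprc at 132 CPM against 2.12 to 7.58 CPM in the other 5 libraries, 5 fibroblast markers summing to 198 CPM against 3.40 to 6.88 CPM, 5 leukocyte markers to 398 CPM against 5.57 to 23.9 CPM, and 5 club cell markers to 8125 CPM against 501 to 817 CPM. It also held the lowest AT2 sum. Wild type 2 alone had high Xist, at 187 CPM against at most 3.02 CPM. It also had low Ddx3y, a gene of the Y chromosome, at 2.92 CPM against 51.3 to 79.3 CPM in the other 5 libraries. The labels do not say why. The counts of negative members, in all and by complex, are given with and without mutant 1 and wild type 2. The counts of groups without overlap and the other pathway lists are given with all libraries. Fewer cells of a type and less RNA per cell cannot be told apart in such bulk libraries.

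The 86 genes varied little between libraries, and no member passed the test of mutant against wild type. In edgeR's quasi-likelihood test 0 of the 86 members passed the 5% threshold after Benjamini-Hochberg adjustment (lowest adjusted p = 0.737), where 0.0% of the 12899 tested genes passed. DESeq2 also called 0 members (lowest adjusted p = 0.435) while calling 0.306% of the 15018 genes to which it gave an adjusted p. At an unadjusted p under 0.05, both tools gave 0 members higher and 3 lower. The count lower in edgeR was 2 without mutant 1, without wild type 1 or with the replicate block, 4 without mutant 3, and 5 without wild type 2 or wild type 3. The background at that level, either way, moved as well. It was 758 of 12875 genes without mutant 1, 544 of 12899 without wild type 1 and 867 of 12899 with the block. It was 871 of 12888 without mutant 3, 459 of 12893 without wild type 2 and 971 of 12899 without wild type 3. With all libraries it was 849 of 12899. The 3 lower members are 3.49% of the 86, beside 2.89% of all tested genes that were lower, 3.69% higher and 6.58% either way at that level in edgeR.

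The estimates nevertheless lay mostly on the negative side. Of the 86 members, 70 had a log2 fold change (mutant minus wild type) below 0, that is 81.4%, beside 48.9% of all tested genes, and 16 were above 0, beside 51.1% of all tested genes. The members' median was -0.071, beside 0.0048 over all tested genes, and the median standard error of a member was 0.097. The 95% interval stayed within 1.5-fold in both directions for 75 of the 86 members, or 87.2%, beside 58.3% of all tested genes. In 13 members (15.1%) each mutant library lay below each wild-type library, beside 6.43% of all tested genes. In 0 members did the mutant libraries all lie above, beside 5.23% of all tested genes, and 11.7% of all tested genes had groups without overlap in either direction. The members are transcribed in the same cells and scaled by the same factors, so their signs are not independent of each other. Without mutant 1, 62 of the 86 were negative with a median of -0.059, beside 51.9% of all tested genes. Without wild type 1, 60 were negative with a median of -0.075, beside 48.7% of all tested genes. Without mutant 1 and wild type 2 together, 55 were negative, with a median of -0.045.

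Where the members lie relative to 0 depends on how libraries are scaled, while their distance from all tested genes changed little. As a share of all counts, the members made up 0.625%, 0.596% and 0.608% across mutants 1 to 3, against 0.628%, 0.625% and 0.600% across wild types 1 to 3, so the groups overlapped. On the TMM scale the members summed to 5846, 6051 and 6070 CPM across mutants 1 to 3, against 6456, 6337 and 6090 CPM across wild types 1 to 3, with mutant 3 close to wild type 3 and no overlap. With library totals alone, 53 of the 86 were negative, beside 36.6% of all tested genes. The members' median was then -0.015 beside 0.06 over all tested genes, a distance of -0.0755, beside -0.0758 with TMM.

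**Figure D1:**
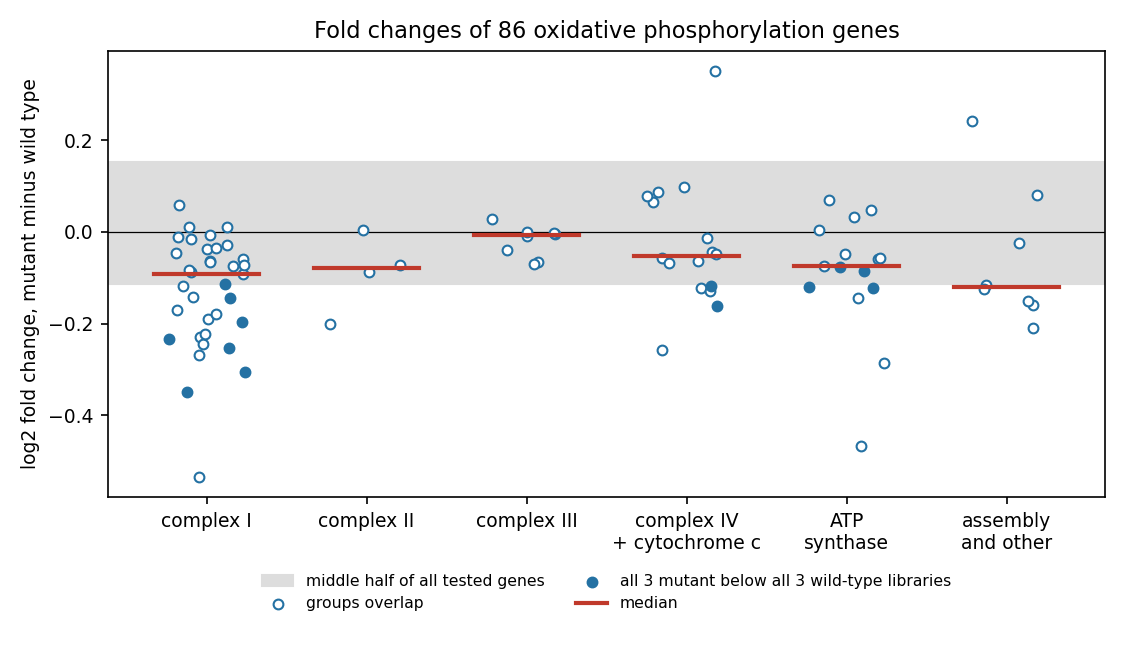
Log2 fold change (mutant minus wild type) of each of the 86 members, by complex. Each point is a gene, filled where all 3 mutant libraries lay below all 3 wild-type libraries, red bars are medians, and the grey band is the interquartile range of all 12899 tested genes. Complex I has 32 of 35 points below 0 and complex III has its median at -0.0059.

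Complex I, which oxidises NADH, had the lowest median of the 5 complexes. Its median lay near those of complex II (-0.079) and the ATP synthase (-0.074), and the differences between complexes were not tested. Of its 35 subunits 32 were negative, at a median of -0.092, and 0 passed the threshold. All 7 nuclear core subunits, those that carry the flavin, the iron-sulfur clusters and the quinone site, were negative, at a median of -0.11, as were 25 of the 28 accessory subunits, at -0.09. Without mutant 1 the count of negative complex I subunits was 28, without mutant 1 and wild type 2 together it was 25, and without wild type 1 it was 25.

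The 3 members with an unadjusted p under 0.05 were all in complex I. Ndufb6, an accessory subunit of the membrane arm, had 19.8, 20.2 and 19.7 CPM across mutants 1 to 3, against 28.1, 22.9 and 25.1 CPM across wild types 1 to 3. The mutants were close together below all wild types. Its log2 fold change was -0.35 ± 0.10 (SE), with an edgeR adjusted p of 0.737. As a limit, 34.1% of the 50-base words of its transcript also occur in a transcript of the gene Smim27, so some of its counts may be reads of that gene.

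Ndufv2, a core subunit that carries an iron-sulfur cluster beside the flavin, had 47.8, 52.5 and 49.8 CPM across mutants 1 to 3, against 60.7, 57.4 and 60.6 CPM across wild types 1 to 3. The groups did not overlap, and the log2 fold change was -0.25 ± 0.076 (edgeR adjusted p = 0.737). Ndufa7, an accessory subunit, had 56.5, 63.8 and 67.1 CPM across mutants 1 to 3, against 77.3, 68.9 and 73.99 CPM across wild types 1 to 3. Mutant 3 lay just below wild type 2, and the log2 fold change was -0.23 ± 0.092 (edgeR adjusted p = 0.737).

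Ndufc1 followed, at 18.2 ± 2.43 CPM in mutants, against 22.5 ± 2.33 CPM in wild types (SD, n = 3 each), or -0.31 ± 0.13 in log2 fold change (edgeR adjusted p = 0.737). The flavin subunit Ndufv1, which binds NADH, averaged 63.3 ± 5.64 CPM in mutants, against 71.7 ± 5.46 CPM in wild types, and the iron-sulfur subunit Ndufs1 averaged 61.5 ± 3.34 CPM in mutants, against 66.6 ± 1.72 CPM in wild types. Ndufs4 had the smallest p on the positive side of complex I, at 0.059 ± 0.12.

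**Figure D2:**
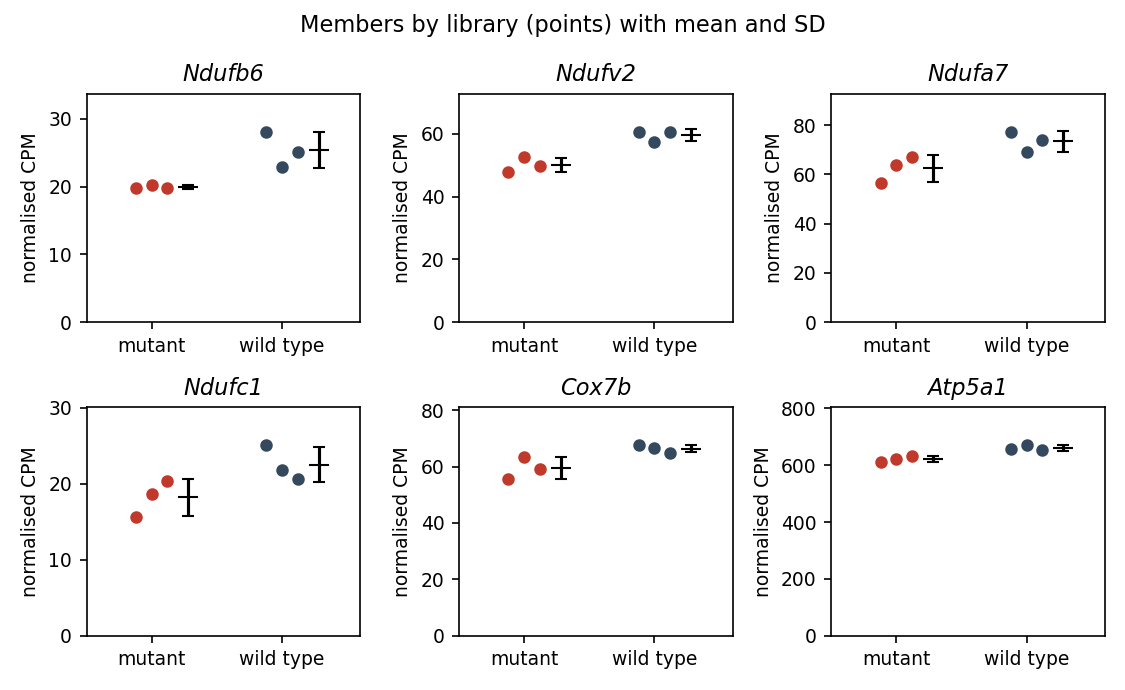
Normalised CPM (scaled by TMM) of 6 members by library, mutant left and wild type right, with points for libraries and bars for the mean and SD of 3 libraries. In each of the 6 the mutant points lie below the wild-type points, with edgeR adjusted p-values from 0.737 to 0.811. The 6 were picked from the 13 of 86 members of which this holds (15.1%, beside 6.43% of all tested genes). They do not stand for the other members.

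Complex II, the succinate dehydrogenase that is also an enzyme of the citric acid cycle, had 3 of 4 subunits negative at a median of -0.079, and 0 passed. Without mutant 1, alone or with wild type 2, all 4 were negative. Sdhb, its iron-sulfur protein, had 51.5, 42.1 and 51.6 CPM across mutants 1 to 3, against 58.3, 58.1 and 50.5 CPM across wild types 1 to 3. Mutants 1 and 3 lay above wild type 3, so the groups overlapped (log2 fold change -0.20 ± 0.11, edgeR adjusted p = 0.739). The flavoprotein Sdha averaged 214 ± 9.39 CPM in mutants, against 225 ± 7.73 CPM in wild types, and the membrane anchor Sdhd had a log2 fold change of 0.0050 ± 0.075.

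Complex III, which passes electrons from coenzyme Q to cytochrome c, was the nearest to no difference. Its 8 subunits among the members ran from -0.070 to 0.028 on the log2 fold change scale, with a median of -0.0059, and 0 passed. Of the 8, 7 were negative, but 4 without mutant 1, where the median was 0.027, and 3 without mutant 1 and wild type 2. The catalytic Rieske protein Uqcrfs1 had 69.8, 69.7 and 69.2 CPM across mutants 1 to 3, against 67.4, 71.5 and 70.3 CPM across wild types 1 to 3, and the groups overlapped. Its log2 fold change had a 95% interval of -0.16 to 0.15. The hinge protein gene Uqcrh averaged 127 ± 14.6 CPM in mutants, against 127 ± 6.92 CPM in wild types. Uqcr10, a small subunit, was the positive one at 0.028 ± 0.082. The core protein gene Uqcrc1 averaged 88.4 ± 5.60 CPM in mutants, against 92.8 ± 4.703 CPM in wild types.

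Complex IV, which hands electrons to oxygen, counted with cytochrome c, had 11 of 16 genes negative at a median of -0.053, and 0 passed. Without mutant 1 the count was 9 and the median -0.031, and without mutant 1 and wild type 2 the count was 8 and the median -0.015. Cox7b, an X-linked subunit gene, had 55.5, 63.3 and 59.2 CPM across mutants 1 to 3, against 67.6, 66.5 and 64.9 CPM across wild types 1 to 3. The groups did not overlap (log2 fold change -0.16 ± 0.078, edgeR adjusted p = 0.739). Cox7b, Ndufa1 and Ndufb11 are X-linked members, and the part of the Xist difference of wild type 2 in them was not tested. Cox6b1 was the other gene of this complex without overlap, at 92.4 ± 2.73 CPM in mutants, against 100.2 ± 2.23 CPM in wild types. These 2 are 12.5% of the 16, beside 6.43% of all tested genes with all mutants below. Cox4i1, the usual form of the largest nuclear subunit, had 202, 172 and 185 CPM across mutants 1 to 3, against 201, 192 and 172 CPM across wild types 1 to 3, and its groups overlapped throughout. Of the 50-base words of the Cox4i1 transcript, 12.2% also occur in Emc8, so some of its counts may be reads of that gene. Cox7c had 26.2, 29.5 and 29.9 CPM across mutants 1 to 3, against 29.3, 24.3 and 26.5 CPM across wild types 1 to 3, the smallest p of this complex on the positive side (0.097 ± 0.11), and its groups overlapped. Cox6c, a small subunit of the membrane part, differed by 0.064 ± 0.072 and the muscle form Cox7a1 by 0.35 ± 0.41. Cycs, the mobile electron carrier cytochrome c, stood at 0.079 ± 0.14 (95% interval -0.26 to 0.42).

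The ATP synthase had 11 of 15 genes negative at a median of -0.074, and 0 passed. The count was 11 also without mutant 1, alone or with wild type 2. Atp5b, the catalytic beta subunit of the F1 head, had 503, 478 and 511 CPM across mutants 1 to 3, against 556, 540.4 and 528 CPM across wild types 1 to 3. Atp5a1, the alpha subunit, had 612, 621 and 633 CPM across mutants 1 to 3, against 657, 671 and 653 CPM across wild types 1 to 3. Neither gene's groups overlapped, yet the log2 fold changes were -0.12 ± 0.079 and -0.086 ± 0.077 (edgeR adjusted p = 0.764 and 0.811). Atp5c1, the gamma subunit that turns inside the head, was positive at 0.069 ± 0.082. The 4 genes of the peripheral stalk, which holds the head still, had a median of -0.058, and the 5 of the head -0.086.

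Among libraries, mutant 1 and wild type 1 lay at the ends. The median log2 ratio of the 86 members to the other 5 libraries was -0.11, -0.0063 and -0.018 in mutants 1 to 3, against 0.09, 0.049 and 0.002 in wild types 1 to 3. Mutants 2 and 3 lay close to wild type 3. For each of the 3 numbers the mutant was lower than the wild type, though whether the numbers pair the libraries is not settled. Mutant 1 was the lowest library for 34 members (39.5%, beside 21.2% of all tested genes), and wild type 1 was the highest for 35 (40.7%, beside 21.5%). The AT2 markers ran the same way, with the lowest sum in mutant 1 at 119587 CPM and the highest in wild type 1 at 162991 CPM, and the part of cell composition in the members' values was not tested. For complex I the library medians were -0.14, -0.068 and -0.049 in mutants 1 to 3, against 0.13, 0.061 and -0.022 in wild types 1 to 3. For complex III mutant 2 was the highest library at 0.077, and for complex IV mutant 3 at 0.078 lay above wild types 2 and 3.

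**Figure D3:**
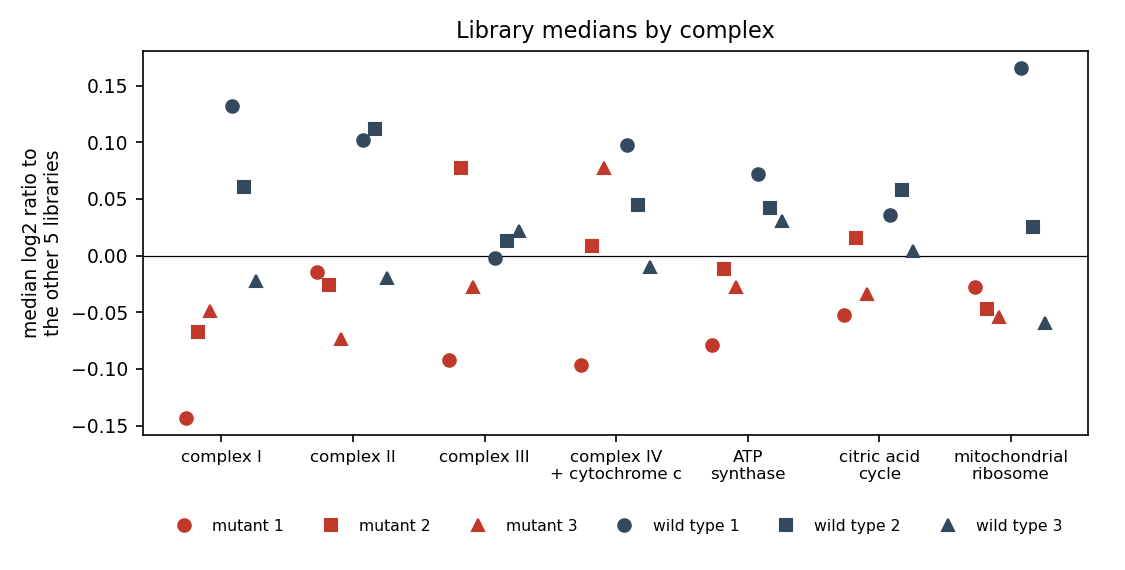
Median log2 ratio of each library to the mean of the other 5, over the tested genes of each complex and of 2 other mitochondrial lists, with mutants in red at left and wild types in dark grey at right. In complex I mutants lie at -0.14 to -0.049 and wild types at -0.022 to 0.13, and the groups do not overlap in the ATP synthase either. In complexes II, III and IV and in both other lists the groups overlap.

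Members varied less between libraries than most genes. The highest library exceeded the lowest by a median of 1.24-fold over the 86 members and 1.43-fold over all tested genes, and by under 1.5-fold in 78 members (90.7%, beside 56.7% of all tested genes). Depth differs between these sets, and its part was not tested. The exceptions above 2-fold were Ndufb4, Cox6a2, Cox7a1 and Atp5l, named after their values were seen. Ndufb4, an accessory subunit of complex I, had 4.36, 2.35 and 3.91 CPM across mutants 1 to 3, against 5.62, 5.93 and 3.87 CPM across wild types 1 to 3. Cox7a1 had 267 counts and Atp5l 97 counts in all libraries together.

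Cox6a2 was the well-counted exception. It encodes the heart and skeletal muscle form of a complex IV subunit whose usual form is Cox6a1. Cox6a2 had 24.8, 46.7 and 29.4 CPM across mutants 1 to 3, against 51.7, 32.5 and 20.7 CPM across wild types 1 to 3. The high and low libraries were spread over both groups (log2 fold change -0.057 ± 0.36, 95% interval -0.90 to 0.79). In the same libraries 6 cardiac and skeletal muscle markers summed to 0.823 to 3.63 CPM, and the source of the Cox6a2 counts was not tested. Per length, in RPKM (CPM divided by transcript length in kilobases), Cox6a2 made up 20.3%, 33.7% and 21.4% of the Cox6a1 and Cox6a2 sum across mutants 1 to 3, against 30.8%, 23.5% and 16.8% across wild types 1 to 3. Cox6a1 itself varied far less, at 83.2 ± 6.85 CPM in mutants, against 90.9 ± 6.04 CPM in wild types.

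Other tissue forms were minor. Cox6b2, known from testis, made up 8.32%, 8.94% and 11.7% of its pair with Cox6b1 across mutants 1 to 3, against 10.03%, 9.56% and 12.2% across wild types 1 to 3, in RPKM. Cox7a1, the muscle form beside Cox7a2, made up 3.67%, 3.87% and 4.02% across mutants 1 to 3, against 3.89%, 1.79% and 3.17% across wild types 1 to 3. Cox4i2, a form known from lung and from hypoxia, made up 1.32%, 1.504% and 1.29% of its pair with Cox4i1 across mutants 1 to 3, against 0.902%, 1.52% and 1.44% across wild types 1 to 3. Ndufa4l2, a hypoxia-induced relative of Ndufa4, had 4 counts in all, Cox8b had 2, and Cox7b2 and Cox8c had 0, all under the limit of 10.

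**Figure D4:**
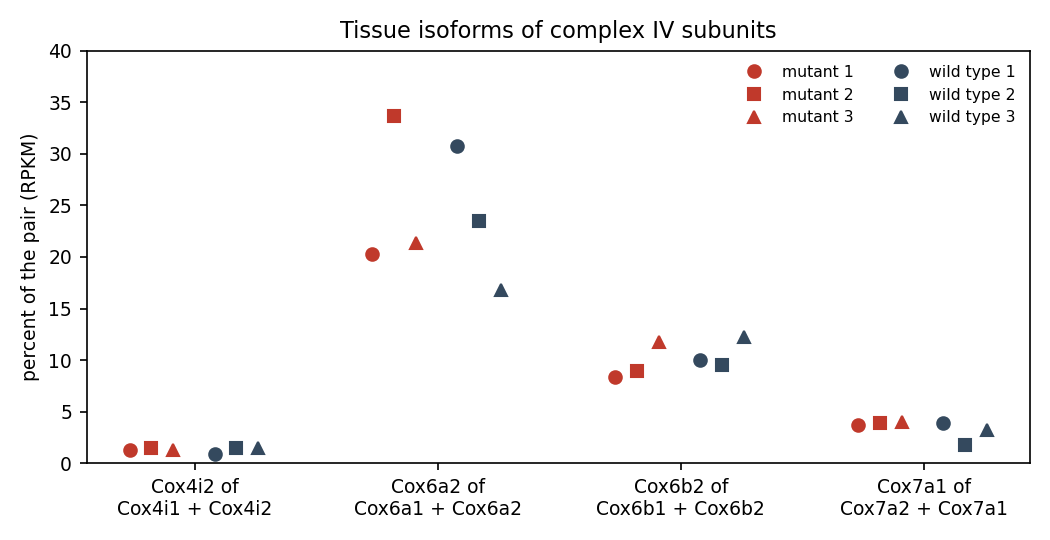
Share of the tissue form in its pair with the usual form, in percent of RPKM, for 4 subunits of complex IV and each library, with mutants in red at left and wild types in dark grey at right. Cox6a2 ranges from 16.8% to 33.7% with both groups mixed, and Cox4i2 stays at or below 1.52%.

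The c ring of the ATP synthase turns as protons pass, and 3 genes encode the same mature protein with different targeting peptides. Atp5g3 had the highest CPM of them, with 89.8, 91.99 and 89.95 CPM across mutants 1 to 3, against 96.01, 95.2 and 89.7 CPM across wild types 1 to 3. Per length it made up 62.7% to 66.1% of the 3 in mutants, against 61.6% to 66.9% in wild types, with the shortest principal transcripts. With the longest it made up 80.9% to 83.8% in mutants, against 81.6% to 84.2% in wild types, so it was the highest with either length. None of the 50-base words of Atp5g3 occur in another annotated gene, while 66.0% of those of Atp5g1 and 100% of those of Atp5g2 do, and the part of such copies in this order was not tested. Atp5g1 had 18.7, 17.5 and 19.96 CPM across mutants 1 to 3, against 25.7, 18.9 and 23.8 CPM across wild types 1 to 3, a log2 fold change of -0.29 ± 0.13 with overlapping groups (edgeR adjusted p = 0.739). Atp5g2 stood at 0.0034 ± 0.13.

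Levels between genes are given per length, as mean RPKM over the 6 libraries with the shortest principal transcript. Median levels were 53.9 RPKM in complex I, 49.6 RPKM in complex II, 91.6 RPKM in complex III, 71.4 RPKM in complex IV with cytochrome c and 129 RPKM in the ATP synthase. Atp5b was the highest of the ATP synthase at 271 RPKM, Cox4i1 of complex IV at 251 RPKM, Uqcrh of complex III at 232 RPKM, Ndufa7 of complex I at 129 RPKM and Sdha of complex II at 75.7 RPKM. At the low end Atp5l, the g subunit, stood at 1.17 RPKM, followed by the assembly factor Ndufaf4 at 2.24 RPKM, Cox4i2 at 3.36 RPKM, Cycs at 3.604 RPKM, Cox7a1 at 4.36 RPKM and Ndufb4 at 4.47 RPKM.

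Many of these genes have near-identical copies elsewhere in the genome, and nothing used here says how reads that match several places were counted. Of the 91 symbols matched, 42 had no 50-base word in common with another annotated gene and 19 shared over 25% of their words. Atp5l shared 84.8% with up to 14 other genes, Ndufb4 37.0%, Ndufab1 31.2% and Cycs 28.5%. High sharing did not always go with a low level, since Atp5h shared 66.6% and stood at 226 RPKM. Of the tested members without shared words 30 of 38 were negative at a median log2 fold change of -0.065, of those sharing up to 25% 26 of 30 at -0.081, and of those sharing over 25% 14 of 18 at -0.071. The difference between these sets was not tested.

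**Figure D5:**
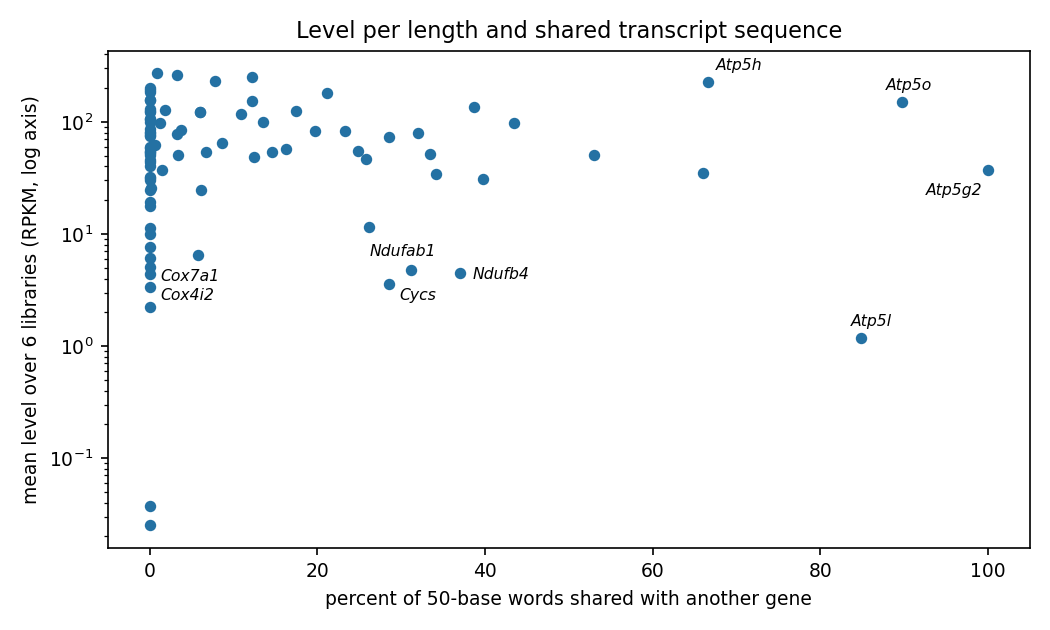
Mean level per length (RPKM, log axis) against the percent of 50-base words of the shortest principal transcript that also occur in another annotated gene, for the 88 matched genes with any count. Atp5l lies lowest of the genes over 25%, at 1.17 RPKM with 84.8% shared, and Atp5h is high at 226 RPKM with 66.6% shared.

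Ndufs5, an accessory subunit of complex I, was listed at 0 in all 6 libraries and so is no member, although 41.2% of its words, all in the gene BC002163, are shared and the rest are not. BC002163 had 10, 14 and 176 counts across mutants 1 to 3, against 10, 142 and 8 counts across wild types 1 to 3. It was thus high in mutant 3 and wild type 2 only, across the groups, at 6.21 and 5.69 CPM against 0.305 to 0.599 CPM in the other 4 libraries, and its edgeR adjusted p was 0.987. No level of Ndufs5 itself can be given.

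The promoters were searched for motifs of factors known to control respiratory genes. RefSeq promoters on GRCm38.p6, from 250 bases before to 50 after the start, were found for 72 of the 86 members. Both strands were searched. The core letters of the nuclear respiratory factor Nrf1, GCGC and TGCGC with 1 base between them, stood in 17 of the 72 (23.6%), beside 5.19% of all 27025 genes with a promoter and 11.4% of the 9216 tested ones. The ETS letters CCGGAAG, the core of the sites of Gabpa, stood in 23.6%, beside 9.93% and 19.7%. The letters AANATGGC of Yy1 stood in 26.4%, beside 6.96% and 9.80%, and the half-site TCAAGGTCA of the estrogen-related receptors in 2.78%, beside 0.466% and 0.391%. A match is not a bound site. Members with the Nrf1 letters had a median log2 fold change of -0.058 and those without -0.088. For the ETS letters the medians were -0.083 with and -0.072 without, for the Yy1 letters -0.076 and -0.070, and for the receptor half-site, in 2 members, -0.021 and -0.073.

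The following are the 250 bases before the start of 3 members, chosen because they hold repeated Nrf1 letters (Sdha), both Nrf1 and ETS letters (Cox6a1), and Yy1 letters in a member with one of the lowest p-values (Ndufa7, the second of its listed starts). Capitals mark the matched letters on either strand.
Sdha promoter, GRCm38.p6 chr13:74350241-74350490, minus strand: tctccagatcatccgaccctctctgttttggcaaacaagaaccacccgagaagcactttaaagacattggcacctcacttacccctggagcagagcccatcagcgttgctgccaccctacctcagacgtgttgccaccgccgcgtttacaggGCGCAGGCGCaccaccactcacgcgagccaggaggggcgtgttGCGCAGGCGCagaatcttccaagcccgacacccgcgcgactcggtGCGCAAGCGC
Cox6a1 promoter, GRCm38.p6 chr5:115348959-115349208, minus strand: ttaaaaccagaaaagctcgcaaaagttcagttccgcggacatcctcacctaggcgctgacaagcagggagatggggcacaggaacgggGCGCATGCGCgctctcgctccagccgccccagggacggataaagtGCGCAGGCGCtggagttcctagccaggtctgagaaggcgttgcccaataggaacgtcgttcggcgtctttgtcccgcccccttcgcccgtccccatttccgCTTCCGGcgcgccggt
Ndufa7 promoter, GRCm38.p6 chr17:33824395-33824644, plus strand: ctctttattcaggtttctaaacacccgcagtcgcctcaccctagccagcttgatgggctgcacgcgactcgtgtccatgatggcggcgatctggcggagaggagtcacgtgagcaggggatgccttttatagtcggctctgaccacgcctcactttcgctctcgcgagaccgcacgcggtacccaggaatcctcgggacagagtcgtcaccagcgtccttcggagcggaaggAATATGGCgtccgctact
The values of these members are given above: Sdha differed by -0.072 ± 0.074, Cox6a1 by -0.13 ± 0.090 and Ndufa7 by -0.23 ± 0.092 on the log2 fold change scale, and none passed the threshold.

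None of the genes of these factors and their coactivators passed the threshold. Ppargc1a, the coactivator known as a driver of mitochondrial biogenesis, averaged 12.01 ± 0.9703 CPM in mutants, against 13.1 ± 1.75 CPM in wild types. Nrf1 had 25.2, 22.6 and 24.9 CPM across mutants 1 to 3, against 25.4, 29.9 and 26.1 CPM across wild types 1 to 3, with mutant 1 and wild type 1 almost equal (log2 fold change -0.16 ± 0.10, edgeR adjusted p = 0.762). Gabpa differed by 0.022 ± 0.14, Esrra by 0.040 ± 0.090, Ppargc1b by 0.15 ± 0.32 and Tfam, which packs and transcribes mitochondrial DNA, by -0.085 ± 0.10. Of 14 biogenesis regulators 7 were positive and 7 negative, and 0 passed. Peo1, the mitochondrial helicase gene, had the smallest p among them, at -0.21 ± 0.11.

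Other mitochondrial lists were counted in the same way. Of 76 mitochondrial ribosomal genes 60 were negative at a median log2 fold change of -0.078. Their library medians were -0.028, -0.047 and -0.054 in mutants 1 to 3, against 0.17, 0.025 and -0.060 in wild types 1 to 3, so wild type 1 stood apart and wild type 3 was the lowest of the 6. Of 13 citric acid cycle genes without Sdh 10 were negative at -0.060, and of 8 genes for other electron entry to coenzyme Q 7 at -0.095. None of these genes passed the threshold, and whether the lists differ from the members was not tested. Mrpl30, of the large ribosomal subunit, averaged 26.1 ± 1.86 CPM in mutants, against 32.3 ± 0.804 CPM in wild types (edgeR adjusted p = 0.737). Mrps24 differed by -0.35 ± 0.12. Etfb, a subunit of the electron transfer flavoprotein, averaged 117 ± 4.21 CPM in mutants, against 134 ± 13.3 CPM in wild types, and Etfdh, which passes its electrons to coenzyme Q, differed by -0.24 ± 0.11. The fumarase gene Fh1 differed by -0.16 ± 0.089 and Idh3g, of the NAD-dependent isocitrate dehydrogenase, by -0.13 ± 0.081.

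The lists of genes that build the complexes had medians of either sign. Of 20 tested complex IV assembly genes 12 were negative at a median of -0.042. Cox16, one of them, had 10.6, 13.2 and 12.4 CPM across mutants 1 to 3, against 15.8, 16.3 and 16.9 CPM across wild types 1 to 3, without overlap (log2 fold change -0.44 ± 0.12, edgeR adjusted p = 0.737). Of 8 complex I assembly genes outside the members 5 were positive, led by Foxred1 at 22.3 ± 1.67 CPM in mutants, against 18.8 ± 0.265 CPM in wild types (0.24 ± 0.094). Nubpl, which inserts iron-sulfur clusters into complex I, differed the other way at -0.53 ± 0.27. Among the members, the 8 assembly factors and others, with Cox7a2l and Cox4nb, had 6 negative at a median of -0.12. They ran from -0.21 to 0.24, and 0 passed. The highest, the complex I assembly factor Ndufaf4, differed by 0.24 ± 0.25, resting on mutant 2. Ndufaf4 had 11.9 CPM there, where the other 5 libraries had 6.77 to 8.23 CPM. Without mutant 2 its log2 fold change was -0.039. Assembly genes of complex II had 3 of 4 negative at a median of -0.19, and those of complex III 3 of 6 at -0.057. For the ATP synthase it was 1 of 3, at 0.071. These lists held 0 genes past the threshold. So did 10 coenzyme Q synthesis genes (4 negative, median 0.054) and the 3 carriers of nucleotides and phosphate (2 negative, median -0.060). Slc25a5, an adenine nucleotide carrier, averaged 190.3 ± 3.28 CPM in mutants, against 203 ± 8.21 CPM in wild types.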

How the data were processed

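RNA from sorted cells was sequenced in 6 libraries, 3 mutant and 3 wild type, assigned by title. Per the labels' protocols the libraries were made with a TruSeq mRNA kit and run on the same flow cell; the sequencer is named differently in different labels. The authors deposited raw counts, which are whole numbers for each gene symbol. Per the submitters' processing notes the build was mm9 and the tools were CASAVA and DESeq2; nothing used here gives the aligner, counter, annotation or strand handling.

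The members and lists were chosen with earlier results of these data known. Counts were filtered with filterByExpr, which left 12899 genes, scaled by TMM and compared two-sided by the quasi-likelihood F-test of edgeR 4.0.16 (R 4.3.3). P-values were adjusted over all 12899 genes by Benjamini-Hochberg, with calls at 5%, and the fit also gave standard errors and 95% intervals. Depth puts 3 counts at 0.0915 to 0.137 CPM, counting error only. No pair of replicates agreed within sampling noise (chi-square of 19.2 to 82.8 per degree of freedom). After centring on group means, mutant and wild-type libraries of the same number correlated at 0.31, 0.21 and 0.17. Those of different numbers correlated at -0.25 to 0.069. Deviations sum to 0 within each group, so these correlations constrain one another and do not settle whether the numbers pair the libraries. A pairing by number was taken from the data alone. The main fit did not use this pairing, which entered only in the alternative run with the replicate block. RPKM used GENCODE M21 transcript lengths, taking the shortest APPRIS principal transcript. Words of 50 bases were compared with all GENCODE M21 transcripts on both strands. For the pathway lists, current names absent from the files were looked up by their RefSeq synonyms, and Coa1 was not matched.

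Members named with values were, in each complex, the highest in log2 CPM and, for either direction, the gene of smallest p; also the 4 genes of smallest p over all members for either direction, and the isoform pairs; the rule's clause on a library at least 2-fold above or below every other library, with at least 50 counts in the highest, named none. For 1 gene that this rule names, values are not reported here. The pathway lists gave up to 2 genes each by smallest p and 6 regulators. Others, such as Ndufv1, Ndufs1, Atp5b, Uqcrfs1, Cycs, Ndufb4, Atp5l and BC002163, were chosen after their values were seen. Alternatives were DESeq2 1.42.0 or its size factors, library totals, other filters, the replicate block and leaving out libraries. On simulated data the edgeR steps were tested as well. Library medians used log2 of CPM plus 0.5.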

Additional observations from a re-analysis of the deposited data

How the results depend on the processing

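No member passed under any alternative run. The median of the 86 members was -0.10 to -0.059 when each library was left out in turn and -0.072 with the replicate block, which changed no call. Library totals in place of TMM moved it to -0.015, complex II to -0.024, complex III to 0.045 and the ATP synthase to -0.015, while the median of all tested genes moved to 0.06. Complex II ranged from -0.13 to -0.040 over the libraries left out. Over all genes edgeR called 0 and DESeq2 46, and edgeR called 0 to 1 gene with a library left out.

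The sign of some members turned. Library totals moved the median of all tested genes from 0.0048 to 0.06, and the log2 fold changes were then 0.0077 for Atp5g3, 0.046 for Cox4i1, 0.0054 for Cox7a2 and 0.043 for Uqcrh. Without the filter they were -0.0055 for Atp5g2 and -0.0053 for Sdhd. Leaving out mutant 1 and wild type 2 together, an alternative added after seeing the data, gave 0.083 for Cox6a2, 0.0081 for Cox7a2, 0.045 for Cox7a2l, 0.11 for Cox8a, -0.015 for Sdhd and 0.095 for Uqcrh. Leaving out single libraries gave -0.084 to 0.080 for Atp5g2, -0.078 to 0.036 for Cox4i1, -0.083 to 0.25 for Cox4i2, -0.37 to 0.34 for Cox6a2, -0.099 to -0.013 for Cox7a2, -0.18 to -0.034 for Cox7a2l, -0.18 to 0.074 for Cox8a, -0.039 to 0.40 for Ndufaf4, -0.037 to 0.15 for Ndufs4, -0.035 to 0.031 for Sdhd, -0.020 to 0.057 for Uqcr10 and -0.10 to 0.070 for Uqcrh. The cause was not tested. At 3 libraries a group, the 95% intervals of Ndufb4, Atp5l and Cox7a1 reached beyond a 2-fold difference, and those of the other 83 members did not.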
